A study of Mus musculus with 18 samples.

Results

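The comparison described here sets NIH3T3 cells 12 h after a dexamethasone pulse against the same kind of culture at 0 h, the start of the time course, across all genes. Its members are 4 of the 18 libraries of the study, chosen by their time labels alone: 2 libraries (replicate 1 and replicate 2) at 12 h and 2 at 0 h. NIH3T3 is an established line of mouse embryo fibroblasts. Cells of both times had been exposed to 100 nM dexamethasone, a synthetic glucocorticoid, for 2 h, and 0 h is the moment at which that medium was replaced with normal culture medium. The 12 h cells had then grown for 12 h without the added hormone, while the 0 h cells were taken at the end of the exposure. Harvests followed every 4 h up to 32 h, and no library came from cells without the pulse, so the 0 h cells are not untreated controls. The 2 libraries at 24 h, a full day after the medium change, are given beside the 12 h values where they bear on them.

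A glucocorticoid pulse is a standard way to bring the circadian clocks of cultured fibroblasts into a common phase. In that clock, CLOCK and BMAL1 (the product of Arntl) bind E-box sequences and switch on the period and cryptochrome genes, whose proteins then inhibit CLOCK and BMAL1. A side loop joins to it the REV-ERB repressors, which act on Arntl, and the D-box factors DBP, TEF and HLF with their opponent NFIL3. The glucocorticoid receptor also acts directly on many genes. Immediate early genes are the fast and short-lived transcriptional answer of a cell to growth signals and stress. The times compared lie 12 h of a circadian cycle of about 24 h apart, so a rhythmic gene near its peak at one of them would be near its trough at the other.

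The 12 h libraries held 34.35 and 31.87 M reads in genes, and the 0 h libraries 38.87 and 25.41 M. Levels are given as normalized reads, the deposited read counts divided by one scaling factor per library. They are comparable between libraries for 1 gene, but not between genes, since they are not per length. In replicates of the same time, the median gene differed by 0.129 log2 at 12 h and by 0.115 log2 at 0 h. The 10 genes with the most reads took 6.40% and 6.52% of the normalized reads at 12 h, against 8.05% and 8.09% at 0 h. The labels do not say whether the replicates were separate cultures, so each p-value measures only the spread between these libraries. Since RNA came from whole cultures, a fall in the number of cells of a kind and a fall in RNA per cell cannot be told apart.

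A gene was called changed when its adjusted p was below 0.05 in limma, with Benjamini-Hochberg adjustment over the 12393 genes, of 21937 in the table, whose mean over all libraries reached 10 normalized reads. Every adjusted p below comes from that fit unless another setting is named. That fit did not pair the libraries by replicate number. Log2 changes are 12 h minus 0 h ± SE, computed after adding 1 to each value, so that the change of genes with few reads is understated, and folds are taken from them. At 12 h, 2239 genes (18.1%) were higher and 2250 (18.2%) lower than at 0 h, together 36.2% of those tested. Most changes were small, with a median of 0.41 log2 among the higher and 0.47 log2 among the lower genes. Among changes of at least 2-fold, falls outnumbered rises: 356 genes (2.87%) were at least 2-fold lower and 98 (0.791%) at least 2-fold higher, and at 4-fold the counts were 50 (0.403%) lower and 2 (0.0161%) higher. Both 12 h libraries stood above both 0 h libraries in 32.6% of the tested genes and below them in 31.8%. With every library brought to equal totals, the median change of all genes moved by 0.18 log2 and the calls became 4770 higher and 1183 lower. Then 226 genes were at least 2-fold higher and 240 at least 2-fold lower. The direction of a small change and the size of the excess of large falls thus depend on the scaling. That excess stayed with quantile normalization (327 lower, 90 higher) and with TMM factors (356 lower, 101 higher). Without 0 h replicate 1, 162 genes were at least 2-fold higher and 374 at least 2-fold lower. In a fit of the 0 h and 12 h libraries alone, 1415 genes were higher.

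**Figure D1:**
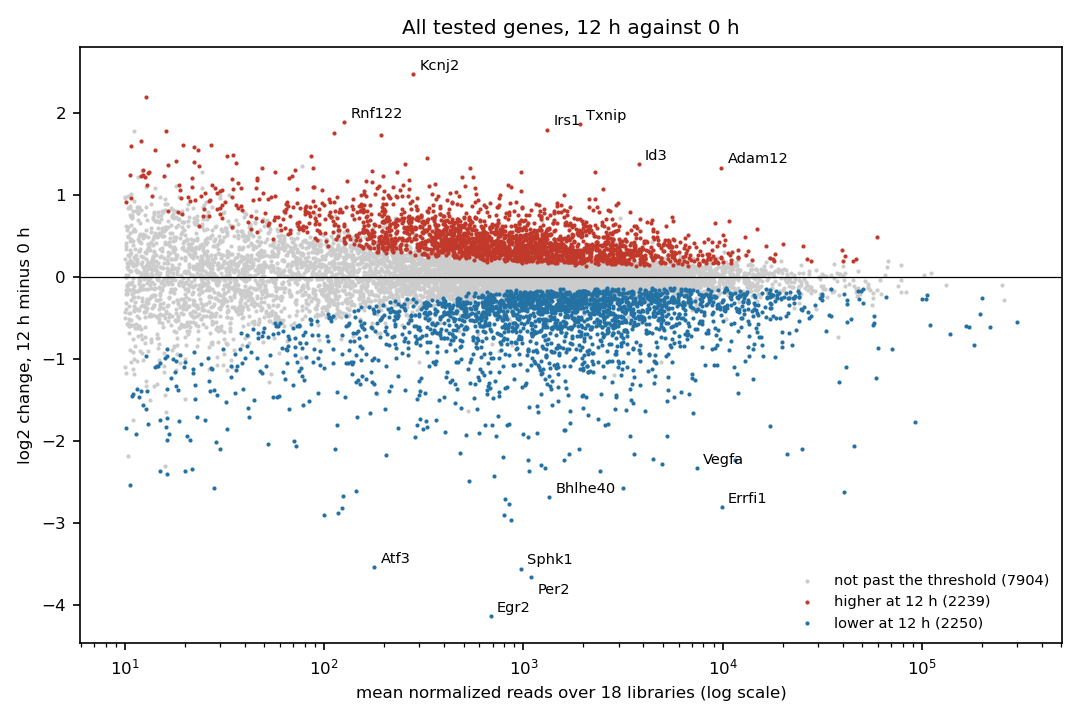
Log2 change at 12 h against 0 h (vertical axis) for each of the 12393 tested genes against its mean normalized reads over the 18 libraries (horizontal log axis), with higher calls in red, lower calls in blue and the rest in grey. The points reach further down than up: Egr2 lies at -4.14 and Kcnj2, the highest labelled gene, at 2.47.

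Among the gene lists used here, the largest median fall was that of the arm of the clock driven through E-boxes and D-boxes. Of its 14 listed genes, all tested, 12 were lower at 12 h and none was higher, against 18.2% and 18.1% of all tested genes. The median change of the 14 was -2.01 log2, against 0.00 over all tested genes. At least 2-fold lower were 11 of them, against 2.87% of all tested genes. Several of these genes carry the binding sequences in the bases just before their start. The stretches that hold them are shown, since they are what the list's name refers to, from the RefSeq promoter table of build GRCm38.p6, each 5′ to 3′ on the strand of the gene. Capitals mark the E-box CACGTG, which reads the same on both strands, or, in Per3, the D-box TTATGTAA, searched on both strands.
Per1, chr11:69098749-69098822, plus strand: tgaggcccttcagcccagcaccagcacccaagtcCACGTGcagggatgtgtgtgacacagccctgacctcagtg
Gm129 (Ciart), chr3:95882305-95882378, minus strand: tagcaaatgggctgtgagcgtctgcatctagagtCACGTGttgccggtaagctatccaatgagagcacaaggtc
Tef, chr15:81802512-81802585, plus strand: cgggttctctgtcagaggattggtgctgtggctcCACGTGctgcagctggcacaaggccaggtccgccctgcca
Bhlhe41, chr6:145865534-145865607, minus strand: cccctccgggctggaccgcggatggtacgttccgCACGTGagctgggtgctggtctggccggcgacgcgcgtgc
Per3, chr4:151044829-151044904, minus strand: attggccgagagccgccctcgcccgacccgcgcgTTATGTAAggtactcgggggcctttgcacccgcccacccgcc

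A window from 250 bases before to 50 bases after the start was given for 11 of the 14 genes. CACGTG was in the window of 4 of them, Per1, Gm129, Tef and Bhlhe41, and thus in 5 of 13 windows (38.5%), compared with 7.15% of all 32851 windows. The D-box letters were in 1 of the 13 windows (7.69%), that of Per3, compared with 0.938% of all. Here and below, matches of different motifs shared no base in any window. A match describes the letters only, and genes with no match in this window can carry such elements elsewhere. Here and below, the lists hold genes picked as known to be controlled through such sites. A share above that of all windows thus follows from the choice of genes and is no result about the changes at 12 h.

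The period genes encode the repressors at the core of the loop. Per2 had 165 and 181 normalized reads in the 12 h libraries, against 1795 and 2709 in the 0 h libraries. Both 12 h libraries lay far below the lower 0 h library, a 12.7-fold fall and the second largest among genes averaging 50 or more normalized reads whose libraries did not overlap (log2 change -3.67 ± 0.20, adjusted p = 1.08e-08). Per3 had 152 and 140.4 at 12 h, against 753 and 913 at 0 h (5.64-fold lower, log2 change -2.50 ± 0.16, adjusted p = 5.14e-08). Per1 had 2343 and 2503 at 12 h, against 7102 and 8058 at 0 h (3.12-fold lower, log2 change -1.64 ± 0.08, adjusted p = 5.05e-09). Per1, in which the printed E-box starts 166 bases before the gene, is also a direct target of the glucocorticoid receptor. Means at 4 h were 3481 ± 194 for Per1 and 1687 ± 35.3 for Per2 (SD, n = 2 each). The part of the receptor in these courses was not tested. Cry2, one of the cryptochromes that act with the period proteins, had 374 and 357 at 12 h, against 759 and 891 at 0 h (2.25-fold lower, log2 change -1.17 ± 0.12, adjusted p = 6.35e-06). Its highest mean between 0 h and 24 h was that at 4 h, 1331 ± 18.4.

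The REV-ERB repressors fell too. Nr1d1, which encodes REV-ERB alpha, had 610.1 and 461 normalized reads in the 12 h libraries, against 2034 and 2077 in the 0 h libraries (3.87-fold lower, log2 change -1.95 ± 0.16, adjusted p = 5.7e-07). Nr1d2, which encodes REV-ERB beta, had 257 and 239 at 12 h, against 1236 and 1462 at 0 h (5.41-fold lower, log2 change -2.44 ± 0.11, adjusted p = 1.73e-09). In each of them the 0 h libraries were more than 3 times the 12 h libraries.

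Among the D-box factors, Tef had 1023 and 960.3 normalized reads in the 12 h libraries, against 3136 and 3763 in the 0 h libraries (3.46-fold lower, log2 change -1.79 ± 0.11, adjusted p = 5.11e-08). Dbp was far less abundant in reads, with 5.38 and 4.87 at 12 h, against 19.9 and 63.2 at 0 h (5.98-fold lower, log2 change -2.58 ± 0.46, adjusted p = 0.000606). The 0 h libraries of Dbp differed widely from each other: its change was -1.77 log2 without 0 h replicate 2 and -3.39 log2 without 0 h replicate 1, called in both cases. The remaining member of the family, Hlf, had 636 and 1048 at 12 h, against 415 and 636 at 0 h, and did not pass (log2 change 0.67 ± 0.32, adjusted p = 0.121). Its lower 12 h library and the higher 0 h library were at the same level, and it was called higher with equal totals and with a replicate block.

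Repressors of CLOCK and BMAL1 outside the period and cryptochrome families were lower as well. Bhlhe40 (DEC1) had 701 and 544 normalized reads in the 12 h libraries, against 3877 and 4102 in the 0 h libraries (6.45-fold lower, log2 change -2.69 ± 0.10, adjusted p = 5.94e-10). Its relative Bhlhe41 (DEC2) had 19.7 and 14.6 at 12 h, against 63.2 and 92.0 at 0 h (4.30-fold lower, log2 change -2.10 ± 0.34, adjusted p = 0.000273). Gm129, the table's symbol for Ciart, a repressor that binds CLOCK and BMAL1, had 32.2 and 21.4 at 12 h, against 124 and 103 at 0 h (4.17-fold lower, log2 change -2.06 ± 0.28, adjusted p = 7.4e-05). None of the 12 h libraries of these genes came near the 0 h range. Wee1, a kinase that holds back entry into mitosis and a known output of the clock, changed least among the called members, with 1133 and 1167 at 12 h, against 1707 and 1837 at 0 h (1.54-fold lower, log2 change -0.62 ± 0.07, adjusted p = 2.03e-05). Usp2, a ubiquitin protease, had 278 and 243 at 12 h, against 327 and 342 at 0 h and did not pass (log2 change -0.36 ± 0.14, adjusted p = 0.0572), although both 12 h libraries were below both 0 h libraries. It was called with quantile normalization and with a replicate block.

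**Figure D2:**
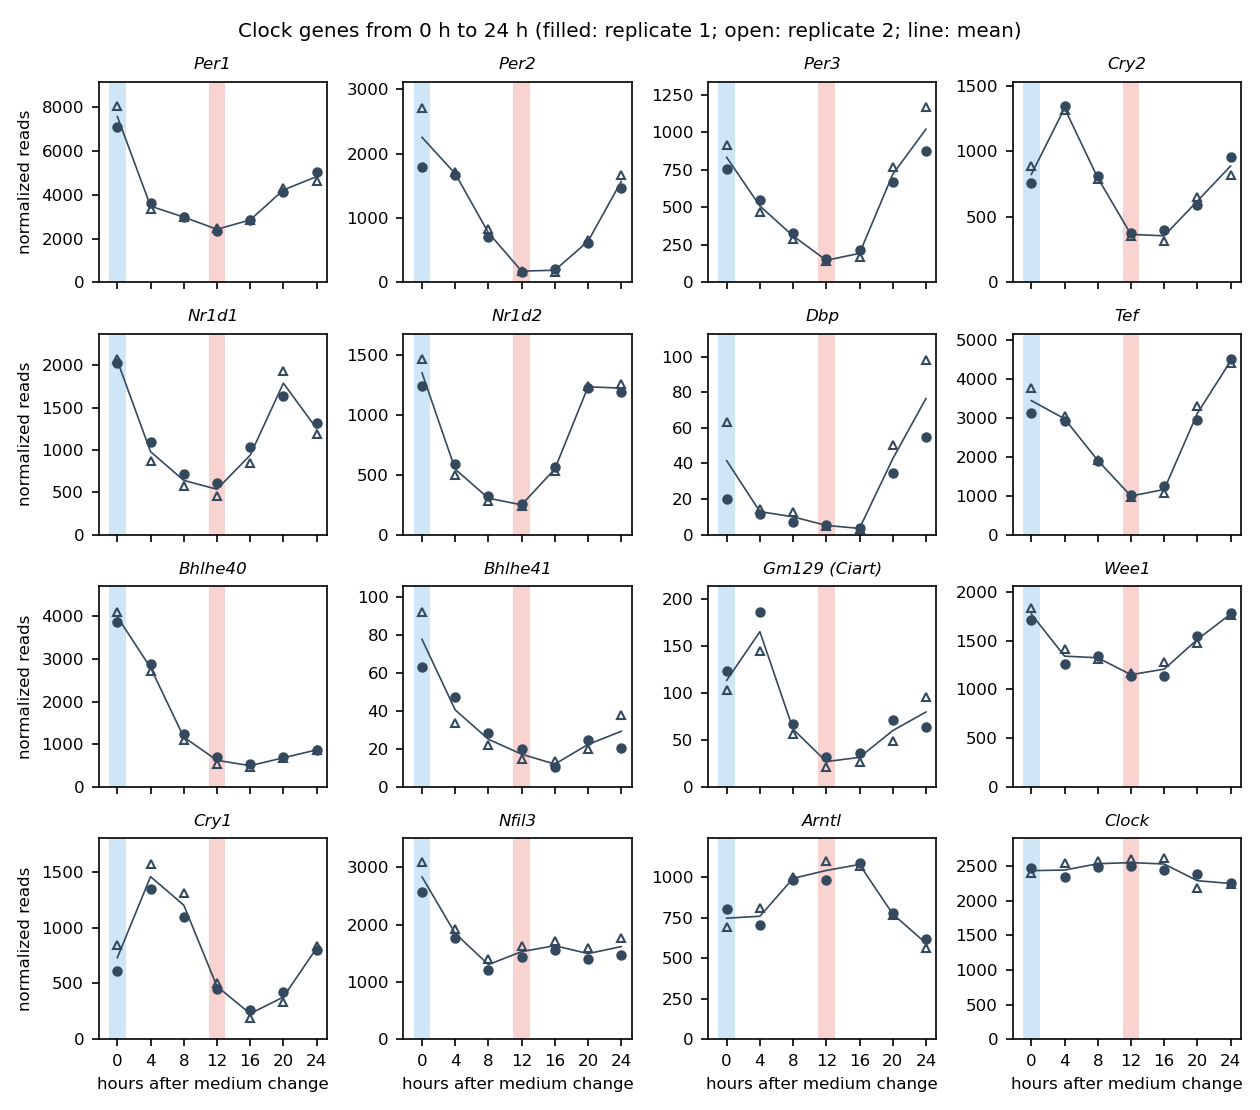
Normalized reads of 16 clock genes (vertical axes, from 0) at 0, 4, 8, 12, 16, 20 and 24 h after the medium change, with replicate 1 filled, replicate 2 open, a line through the means, and the 12 h and 0 h columns shaded red and blue. Most panels have their lowest means at 12 h or 16 h, Arntl has its highest there, and Clock stays between 2191 and 2620.

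The other arm, driven through REV-ERB and ROR elements, did not move as 1 group. Of 6 tested genes, 2 were higher and 2 lower, against 18.1% and 18.2% of all tested genes. Arntl, which encodes BMAL1, had 982 and 1099.7 normalized reads in the 12 h libraries, against 800.2 and 692 in the 0 h libraries, a 1.40-fold rise (log2 change 0.48 ± 0.09, adjusted p = 0.000726). E2f8, a repressor of the E2F family, rose with 1398 and 1351 at 12 h, against 1075 and 1071 at 0 h (1.28-fold, log2 change 0.36 ± 0.06, adjusted p = 0.000505). Both rises were well below 2-fold, and the libraries of the 2 times did not overlap. Nfil3, the repressor at D-boxes, was lower, with 1427 and 1628 at 12 h, against 2573 and 3093 at 0 h (1.85-fold lower, log2 change -0.89 ± 0.11, adjusted p = 3.08e-05). Cry1 had 445 and 501 at 12 h, against 614 and 847 at 0 h (1.53-fold lower, log2 change -0.61 ± 0.17, adjusted p = 0.0115). Cry1 had passed through a mean of 1458 ± 158 at 4 h, and its call was lost when either 0 h replicate 2 or 12 h replicate 1 was left out (adjusted p up to 0.156). Clock itself had 2508 and 2601 at 12 h, against 2476 and 2399 at 0 h and did not pass (log2 change 0.07 ± 0.06, adjusted p = 0.423), except with equal totals. Npas2, with 3.58 and 0 normalized reads at 12 h and none at 0 h, and Rora, with 0.90 and 0.97 at 12 h and 0.90 and 2.75 at 0 h, had too few reads to be tested.

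Set against 24 h, the same genes gave the following values. The comparison at 12 h and that between 24 h and 12 h share the 12 h libraries, so a value that is off at 12 h enters both. Between 12 h and 24 h, 797 genes (6.43%) were called, 412 (3.32%) higher and 385 (3.11%) lower at 24 h. Among the 14 E-box and D-box genes, 11 were higher at 24 h than at 12 h. Per2 was 3.17 log2 higher (adjusted p = 6.91e-07), with 1472 and 1662 normalized reads at 24 h. Dbp was 3.60 log2 higher (adjusted p = 0.000608), with 55.0 and 97.9 normalized reads, and Tef 2.17 log2 higher (adjusted p = 1.05e-07), with 4523 and 4415 normalized reads. Arntl was 0.81 log2 lower at 24 h than at 12 h (adjusted p = 0.000248), with 620.1 and 564 normalized reads. Against 0 h, Per2 and Per3 at 24 h gave log2 changes of -0.50 (adjusted p = 0.0661) and 0.28 (adjusted p = 0.181). Bhlhe40 was still 2.20 log2 below 0 h at 24 h (log2 change -2.20, adjusted p = 2.24e-09), with 863 and 869.7 normalized reads, and Per1 and Nr1d1 also stayed below it (log2 changes -0.65 and -0.71, adjusted p = 2.61e-05 and 0.00259). The count of 797 depends on the libraries: it was 2743 with the replicate number as a block. When 12 h replicate 1 was left out it was 214, with 12 h replicate 2 left out 398, with 24 h replicate 1 left out 467, and with 24 h replicate 2 left out 242.

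Direct targets of the glucocorticoid receptor were mostly lower 12 h after the hormone was removed. Of 20 tested genes of a list of 22, 15 fell and 1, Bcl6, a transcriptional repressor, rose (0.31 log2), a call that was lost when either 0 h library or 12 h replicate 1 was left out. The median change was -1.27 log2, and 11 were at least 2-fold lower. Over all tested genes, 18.2% were lower, 18.1% higher and 2.87% at least 2-fold lower. Fkbp5, a co-chaperone that limits the receptor's own binding of hormone, had 2291 and 2345 normalized reads in the 12 h libraries, against 6664 and 5959 in the 0 h libraries (2.72-fold lower, log2 change -1.44 ± 0.06, adjusted p = 1.5e-09). Errfi1, an inhibitor of the EGF receptor, had 5021 and 6181 at 12 h, against 34713 and 43853 at 0 h (log2 change -2.81 ± 0.14, adjusted p = 3.86e-09). The metallothionein gene Mt2 had 1295 and 1678 at 12 h, against 8529 and 9079.5 at 0 h (5.97-fold lower, log2 change -2.58 ± 0.18, adjusted p = 1.56e-07). In all of these both 12 h libraries lay far below both 0 h libraries. Klf9, a transcription factor, had 1226 and 1472 at 12 h, against 3295 and 5070.4 at 0 h (log2 change -1.60), and Tsc22d3, which encodes the glucocorticoid-induced leucine zipper GILZ, changed by -1.28 log2. The phosphatase gene Dusp1 had 1339 and 1349 at 12 h, against 3111 and 3843 at 0 h (2.57-fold lower, log2 change -1.36 ± 0.09, adjusted p = 1.28e-07) and Rhob, a small GTPase, had 1796 and 2027 at 12 h, against 6259 and 7096 at 0 h (3.49-fold lower, log2 change -1.80 ± 0.13, adjusted p = 1.63e-07). Ddit4 (-0.22 log2), Glul (-0.16) and Angptl4 (-0.13), further known targets, did not pass. The list's median at 24 h was -0.80 log2 from 0 h, in a comparison that shares the 0 h libraries. Without untreated cells, the level from which these genes had started is not measured.

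Immediate early genes fell nearly as a whole. All 28 listed genes were tested, and 25 were lower and 1 higher, against 18.2% and 18.1% of all tested genes. The median change was -1.36 log2, and 19 were at least 2-fold lower, against 2.87% of all tested genes. Egr2, a zinc finger transcription factor, had the largest fall of the whole comparison, with 197 and 215 normalized reads in the 12 h libraries, against 3095 and 4306 in the 0 h libraries (17.6-fold lower, log2 change -4.14 ± 0.13, adjusted p = 5.73e-11). Its relative Egr3 had 60.9 and 53.6 at 12 h, against 329.6 and 571 at 0 h (7.48-fold lower, log2 change -2.90 ± 0.34, adjusted p = 1.54e-05). Atf3, a stress-responsive bZIP factor, had 66.3 and 65.3 at 12 h, against 715 and 847 at 0 h (11.7-fold lower, log2 change -3.54 ± 0.18, adjusted p = 7.16e-09). The 12 h libraries of these genes differed little, while the 0 h libraries of Egr2 and Egr3 were further apart, replicate 2 being the higher. Among the AP-1 genes, Junb had 481 and 402 at 12 h, against 2492 and 3648 at 0 h (6.85-fold lower, log2 change -2.78 ± 0.18, adjusted p = 5.11e-08) and Fosb had 104 and 83.8 at 12 h, against 502 and 663 at 0 h (log2 change -2.62). Fos, Jun and Fosl1 changed by -1.47, -1.32 and -1.30 log2. The orphan nuclear receptor gene Nr4a1 had 2993 and 3012 at 12 h, against 12477 and 17129 at 0 h (4.87-fold lower, log2 change -2.28 ± 0.11, adjusted p = 2.91e-09), whereas Nr4a2, of the same family, was the member that rose, with 135 and 166 at 12 h, against 98.4 and 118 at 0 h (log2 change 0.47). That rise was not called without 0 h replicate 1 or without 12 h replicate 2. Maff had 619.9 and 599.6 at 12 h, against 2163 and 2129.5 at 0 h (3.52-fold lower, log2 change -1.81 ± 0.08, adjusted p = 1.14e-09) and Ier5 3545 and 3404 at 12 h, against 6049 and 6340.4 at 0 h (1.78-fold lower, log2 change -0.83 ± 0.05, adjusted p = 4.01e-08). Myc and Klf10 did not pass, at -0.12 and -0.22 log2. The list's median from 0 h was -0.85 log2 at 4 h and had reached -1.41 by 8 h, then -1.36 at 12 h, and it stood at -1.37 at 24 h.

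Genes that feed back on the MAP kinase pathway, which drives many immediate early genes, showed the same direction. Of 10 tested, 9 were lower and none higher, against 18.2% and 18.1% of all tested genes, with a median of -1.23 log2. Dusp6, a phosphatase that inactivates ERK, had 1703 and 1767 normalized reads in the 12 h libraries, against 4861 and 4760.1 in the 0 h libraries (2.77-fold lower, log2 change -1.47 ± 0.07, adjusted p = 2.31e-09). Dusp5, the nuclear ERK phosphatase, had 955 and 758 at 12 h, against 4116 and 4218 at 0 h (4.89-fold lower, log2 change -2.29 ± 0.15, adjusted p = 9.49e-08). Spry4, a Sprouty inhibitor of receptor signalling, had 379 and 370.5 at 12 h, against 1421 and 1436 at 0 h (3.80-fold lower, log2 change -1.93 ± 0.09, adjusted p = 2.43e-09). The libraries of the 2 times did not overlap in any of these genes. Dusp7 was 2.47-fold lower, Spry2 changed by -0.59 log2 (adjusted p = 7.45e-06), and Spred3 did not pass (-0.09 log2).

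Serum response factor (SRF) binds the CArG box and takes part in the control of both immediate early and cytoskeletal genes. The stretches with CArG boxes of 4 genes that fell are shown to let the letters be compared, in the same notation as above, with every CArG box of the stretch in capitals. In Dusp5 the boxes stand directly side by side.
Egr2, chr10:67537460-67537537, plus strand: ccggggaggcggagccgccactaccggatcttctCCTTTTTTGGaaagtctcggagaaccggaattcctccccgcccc
Dusp5, chr19:53529029-53529106, plus strand: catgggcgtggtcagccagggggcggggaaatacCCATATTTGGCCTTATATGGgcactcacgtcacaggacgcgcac
Srf, chr17:46556201-46556278, minus strand: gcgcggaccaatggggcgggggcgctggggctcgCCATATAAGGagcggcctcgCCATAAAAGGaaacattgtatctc
Vcl, chr14:20929148-20929214, plus strand: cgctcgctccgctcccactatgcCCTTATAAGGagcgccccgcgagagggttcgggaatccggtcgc

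Searched on both strands, a CArG box was in the windows of 8 of 17 genes of the cytoskeletal list described next (9 of 20 windows, 45%), of 2 of 21 immediate early genes (5 of 27 windows, 18.5%) and of 1 of 8 MAP kinase feedback genes (12.5%), against 1.63% of all windows.

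Actin cytoskeleton and adhesion genes known as targets of SRF and its actin-sensing partner MRTF mostly fell. Of 20 tested, 18 were lower and none higher, against 18.2% and 18.1% of all tested genes. The falls were moderate, with a median of -0.64 log2, and 3 genes were at least 2-fold lower, against 2.87% of all. Itga5, the alpha chain of the fibronectin receptor, had 74139 and 66750 normalized reads in the 12 h libraries, against 260220 and 223340 in the 0 h libraries (3.43-fold lower, log2 change -1.78 ± 0.10, adjusted p = 1.16e-08). Vcl, which encodes vinculin of focal adhesions, had 17640 and 17123 at 12 h, against 31829 and 31351 at 0 h (1.82-fold lower, log2 change -0.86 ± 0.06, adjusted p = 2.16e-07). Zyx, which encodes zyxin, had 13517 and 13704 at 12 h, against 24971 and 23703 at 0 h (1.79-fold lower, log2 change -0.84 ± 0.05, adjusted p = 3.63e-08). Srf itself had 2711 and 3057 at 12 h, against 5196 and 5786 at 0 h (1.90-fold lower, log2 change -0.93 ± 0.09, adjusted p = 2.36e-06). In all 4 genes the libraries of the 2 times were clearly apart. The actin genes Actb, Actg1 and Acta2 changed by -0.58, -0.61 and -0.62 log2. Cnn1 (-0.95 log2) and Actg2 (-0.38 log2) did not pass. With quantile normalization 11 of the 20 were lower and the change of Itga5 was -1.10 log2.

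Targets of YAP and TEAD, which respond to spreading and tension of cells, were divided. Of 12 tested, 6 fell, against 18.2% of all tested genes, and the others did not pass. The connective tissue growth factor gene Ctgf had 36014 and 30808 normalized reads in the 12 h libraries, against 152490 and 128110 in the 0 h libraries (4.20-fold lower, log2 change -2.07 ± 0.12, adjusted p = 2.21e-08). Cyr61, a secreted relative of it, had 38692 and 33019 at 12 h, against 96772 and 78315 at 0 h (2.44-fold lower, log2 change -1.28 ± 0.11, adjusted p = 7.21e-07). F3, which encodes tissue factor, was 3.54-fold and the kinase gene Nuak2 3.24-fold lower. Ankrd1 had 4131 and 4011 at 12 h, against 7019 and 5047 at 0 h (1.46-fold lower, log2 change -0.55 ± 0.13, adjusted p = 0.00448), a call that was lost without 0 h replicate 1. Amotl1, Amotl2, Lats2, Axl, Crim1 and Ajuba (listed as Jub) ranged from -0.05 to 0.19 log2 without passing. With equal totals, with quantile normalization and without 0 h replicate 1, 2 of the 12 were higher.

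**Figure D3:**
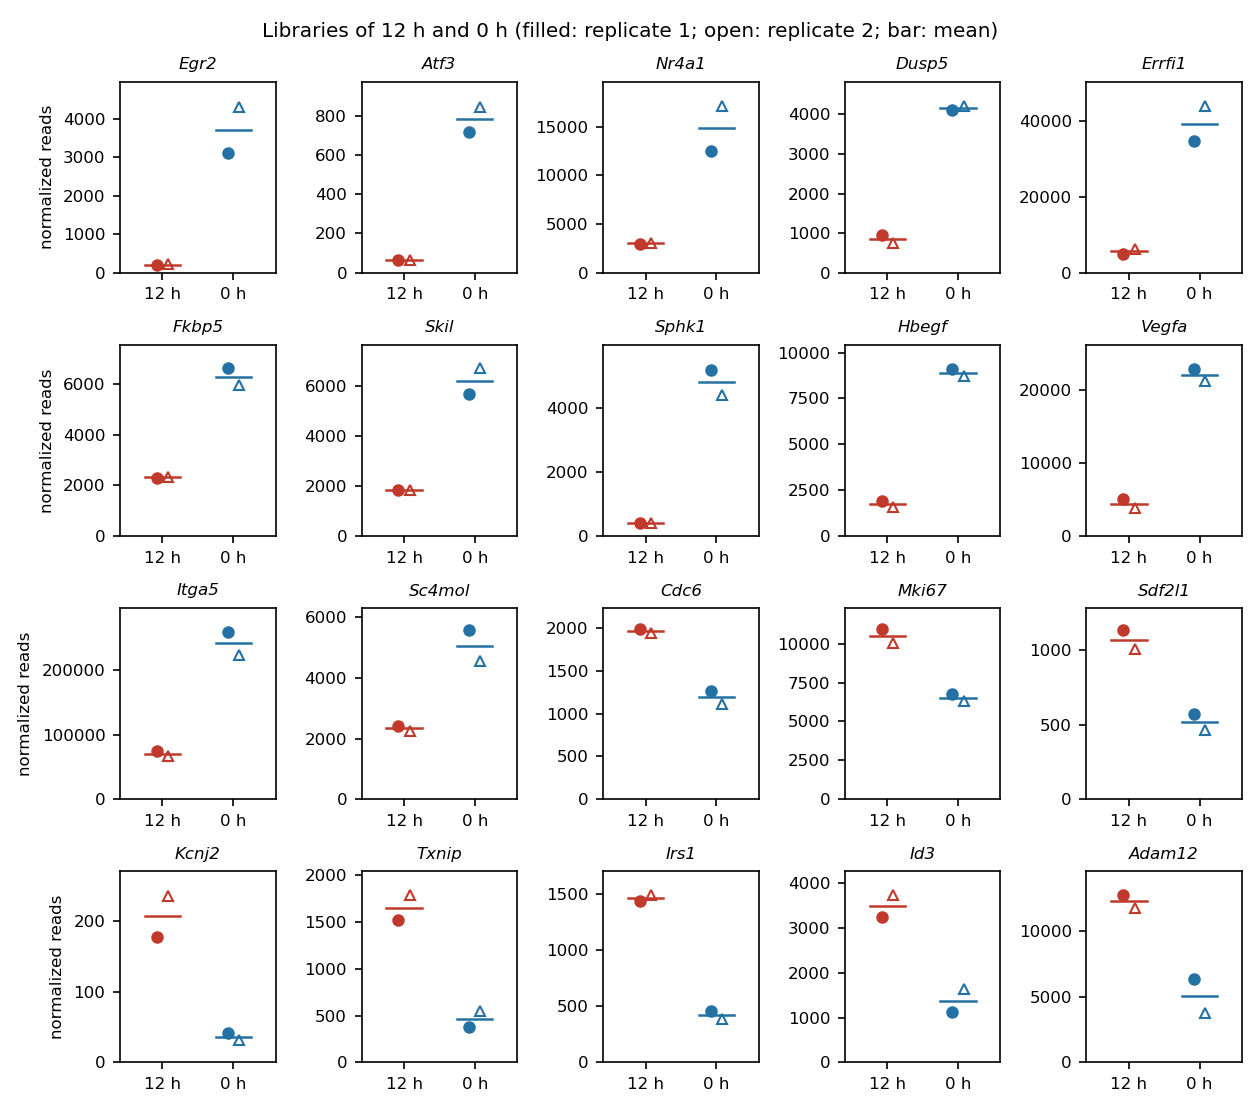
Normalized reads (vertical axes, from 0) in the 2 libraries of 12 h (red, left) and of 0 h (blue, right) for 20 genes, with replicate 1 filled, replicate 2 open and a bar at the mean. The panels show called genes picked for the figure. That their 12 h and 0 h libraries do not overlap follows largely from that choice. Over all tested genes, both 12 h libraries were above both 0 h libraries in 32.6% and below them in 31.8%. The last row and Cdc6, Mki67 and Sdf2l1 are higher at 12 h.

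Secreted growth factors, cytokines and the prostaglandin genes fell in 12 of 21 tested cases and rose in 1. Over all tested genes, 18.2% were lower and 18.1% higher. The list's median change was -0.80 log2. The EGF receptor ligand gene Hbegf had 1900.1 and 1556 normalized reads in the 12 h libraries, against 9103 and 8716 in the 0 h libraries (5.18-fold lower, log2 change -2.37 ± 0.16, adjusted p = 7.59e-08). Ereg, another ligand of that receptor family, had 2664 and 2574 at 12 h, against 12135 and 11414 at 0 h (4.49-fold lower, log2 change -2.17 ± 0.17, adjusted p = 3.21e-07). Vegfa, the vascular endothelial growth factor, had 4997 and 3797 at 12 h, against 22794 and 21184 at 0 h (5.04-fold lower, log2 change -2.33 ± 0.16, adjusted p = 1.41e-07). The 0 h libraries agreed closely in these genes, and the 12 h libraries were far below them. Fgf2 had 54.6 and 65.3 at 12 h, against 484 and 309 at 0 h (6.38-fold lower, log2 change -2.67 ± 0.29, adjusted p = 7.4e-06) and Pdgfa 1201 and 996 at 12 h, against 3806 and 2747 at 0 h (2.95-fold lower, log2 change -1.56 ± 0.16, adjusted p = 6.81e-06). Ptgs2, the inducible cyclooxygenase, and the cytokine genes Lif, Il11 and Il6 changed by -2.10, -1.92, -1.79 and -1.42 log2. Of the chemokine genes in the list, Cxcl5 was higher (0.62 log2), and Ccl2 (0.11), Ccl7 (0.41), Cxcl12 (0.11) and Cxcl1 (-0.12) did not pass.

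Genes that respond to TGF-beta and BMP went both ways. Of 14 tested, 9 were lower and 3 higher, against 18.2% and 18.1% of all tested genes, with a median of -0.53 log2. Skil, a SMAD corepressor, had 1848 and 1854 normalized reads in the 12 h libraries, against 5687 and 6718 in the 0 h libraries (3.34-fold lower, log2 change -1.74 ± 0.12, adjusted p = 1.52e-07). Inhba, which encodes a subunit of activin, had 2183 and 2062 at 12 h, against 8076 and 5265 at 0 h (3.07-fold lower, log2 change -1.62 ± 0.15, adjusted p = 2.08e-06). The 3 members that rose were all Id genes, dominant inhibitors of helix-loop-helix factors that BMP signals induce. Id3 had 3256 and 3752 at 12 h, against 1122 and 1629.7 at 0 h (2.58-fold higher, log2 change 1.37 ± 0.18, adjusted p = 4.02e-05), and Id4 and Id2 were 1.16 and 1.09 log2 higher. Id1 (0.13 log2) and Smad6 (0.49 log2) did not pass. With equal totals 5 members were higher.

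Extracellular matrix genes were lower in 16 of 22 tested cases and higher in 1, against 18.2% and 18.1% of all tested genes. The falls were small, and the list's median was -0.48 log2. Fbn1, which encodes fibrillin-1, was the 1 that rose (0.37 log2). Tnc, which encodes tenascin C, had 61860 and 56407 normalized reads in the 12 h libraries, against 124090 and 95575 in the 0 h libraries (1.84-fold lower, log2 change -0.88 ± 0.10, adjusted p = 1.37e-05). Thbs2, a thrombospondin, had 6696 and 7507 at 12 h, against 13043 and 13134 at 0 h (1.85-fold lower, log2 change -0.88 ± 0.08, adjusted p = 2.22e-06). The decorin gene Dcn had 232 and 176 at 12 h, against 418 and 446 at 0 h (2.13-fold lower, log2 change -1.09 ± 0.14, adjusted p = 3.01e-05). Fn1, which encodes fibronectin, had 277700 and 283360 at 12 h, against 414330 and 411740 at 0 h (1.47-fold lower, log2 change -0.56 ± 0.08, adjusted p = 0.00016), and this call was lost with quantile normalization (adjusted p = 0.601). Col1a1 (-0.11 log2), Sparc (-0.18) and Postn (-0.83) did not pass. The number lower was 8 with equal totals, 7 with quantile normalization, and 10 without 0 h replicate 2 or without 12 h replicate 1.

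Of 19 matrix proteases and their inhibitors 9 were lower and 4 higher, against 18.2% and 18.1% of all tested genes. Timp3, an inhibitor of metalloproteases, had 10830 and 11321 normalized reads in the 12 h libraries, against 46973 and 52150 in the 0 h libraries (4.47-fold lower, log2 change -2.16 ± 0.11, adjusted p = 5.58e-09). The urokinase gene Plau and its receptor gene Plaur were 2.27-fold and 2.10-fold lower (log2 change -1.18 ± 0.11, adjusted p = 2.08e-06, and log2 change -1.07 ± 0.18, adjusted p = 0.000328). Adam12, a membrane-bound metalloprotease, was higher, with 12763 and 11778 at 12 h, against 6352 and 3751 at 0 h (2.51-fold, log2 change 1.33 ± 0.15, adjusted p = 1.65e-05), and so was Adamts5, an aggrecanase, with 2048 and 2425 at 12 h, against 692 and 1223 at 0 h (log2 change 1.28). The median of the list was -0.09 log2 with the deposited scaling and 0.09 with equal totals. Without 0 h replicate 1 and without 12 h replicate 1 the number higher was 2.

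Sterol synthesis genes, which the transcription factor SREBP2 controls, mostly fell. Of 18 tested, 15 were lower and none higher, against 18.2% and 18.1% of all tested genes, with a median of -0.61 log2. Sc4mol, a sterol demethylating oxidase, had 2431 and 2262 normalized reads in the 12 h libraries, against 5573 and 4569 in the 0 h libraries (2.15-fold lower, log2 change -1.11 ± 0.08, adjusted p = 2.16e-07). Insig1, which holds SREBP in the endoplasmic reticulum when sterols are plentiful, had 1669.9 and 1578 at 12 h, against 3472 and 2778 at 0 h (1.91-fold lower, log2 change -0.94 ± 0.08, adjusted p = 7.92e-07). All 12 h libraries of these genes were below all their 0 h libraries. Cyp51 and Sqle were 1.79-fold and 1.57-fold lower, and Srebf2, which encodes SREBP2, changed by -0.54 log2. Mvk (0.13) and Dhcr7 (0.17) were among those that did not pass. With equal totals 12 were lower and 2 higher.

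In the list of hypoxia and glycolysis genes 9 of 23 were lower and 1 higher, against 18.2% and 18.1% of all tested genes. Those that fell included the glucose transporter gene Slc2a1, with 12436 and 9595 normalized reads in the 12 h libraries, against 28449 and 23474 in the 0 h libraries (2.37-fold lower, log2 change -1.24 ± 0.15, adjusted p = 2.86e-05), and the hexokinase gene Hk2, with 2033 and 1835 at 12 h, against 4263 and 4373 at 0 h (2.23-fold lower, log2 change -1.16 ± 0.15, adjusted p = 4.95e-05). Adm, which encodes adrenomedullin, and Ankrd37, both known HIF targets, were 2.33-fold and 3.28-fold lower (log2 change -1.22 ± 0.09, adjusted p = 1.51e-07, and log2 change -1.72 ± 0.18, adjusted p = 6.84e-06). The enzymes of the middle and end of glycolysis did not pass: Gapdh, Pgk1, Ldha and Pkm2 lay between -0.04 and 0.07 log2. The list's median was -0.17 log2, but 0.01 with equal totals, where 5 genes were higher and 7 lower. The rise of the 1 higher gene, Pfkm (0.22 log2), was not called without 0 h replicate 1 or without 12 h replicate 2.

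Of 15 targets of the oxidative stress factor NRF2, 6 were lower and none higher, against 18.2% and 18.1% of all tested genes. The list's median was -0.17 log2 (0.01 with equal totals, where 4 were higher). Hmox1, the inducible heme oxygenase, had 1307 and 1207 normalized reads in the 12 h libraries, against 5371 and 5404 in the 0 h libraries (4.29-fold lower, log2 change -2.10 ± 0.10, adjusted p = 3.58e-09). Srxn1, which encodes sulfiredoxin, was 1.67-fold lower (log2 change -0.74 ± 0.09, adjusted p = 1.87e-05), while Nqo1 (-0.11 log2) and Txnrd1 (-0.22) did not pass.

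Among the lists, the one with the most members that rose was DNA replication, the genes of the G1 and S phases. Of 25 genes, all tested, 23 were higher and none lower, against 18.1% of all genes higher, and the median change was 0.41 log2. No member reached 2-fold. Cdc6, which loads the replicative helicase, had 1987 and 1945 normalized reads in the 12 h libraries, against 1268 and 1114 in the 0 h libraries (1.65-fold higher, log2 change 0.73 ± 0.07, adjusted p = 4.53e-06). Cdc45, a component of the active helicase, had 2064 and 1949 at 12 h, against 1384 and 1207 at 0 h (1.55-fold higher, log2 change 0.63 ± 0.07, adjusted p = 1.76e-05). The helicase subunit gene Mcm5 had 5737 and 5803 at 12 h, against 4329.6 and 4168 at 0 h (1.36-fold higher, log2 change 0.44 ± 0.05, adjusted p = 2.89e-05). The lowest 12 h library exceeded the highest 0 h library in each. Chaf1a, which encodes a histone chaperone subunit, was 1.51-fold and Ccne1, which encodes cyclin E1, 1.44-fold higher. Cdt1 (0.22 log2) and Tyms (0.15) were the 2 that did not pass. Median changes of the list from 0 h were -0.02 log2 at 4 h and 0.21 at 8 h, then 0.41 at 12 h, with 0.37 at 24 h.

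E2F factors control many of these genes. The stretches with E2F sites of 3 members are shown as examples of those sites, with TTTGGCGC or TTTCCCGC, on either strand, in capitals.
Cdc6, chr11:98907979-98908054, plus strand: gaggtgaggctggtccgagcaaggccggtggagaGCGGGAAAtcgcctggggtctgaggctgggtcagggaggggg
Mcm5, chr8:75109326-75109401, plus strand: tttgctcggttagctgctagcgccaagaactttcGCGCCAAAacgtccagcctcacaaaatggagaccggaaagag
Mcm6, chr1:128359774-128359849, minus strand: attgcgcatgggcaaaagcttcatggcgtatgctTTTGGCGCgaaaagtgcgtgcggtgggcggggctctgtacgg

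One of these 8-letter forms was in the windows of 7 of 19 genes of the list (7 of 20 windows, 35%), against 1.56% of all windows.

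Mitosis genes were higher in 18 of 25 cases and lower in 2, against 18.1% and 18.2% of all tested genes. The list's median was 0.36 log2. Mki67, which encodes the proliferation marker Ki-67, had 10948 and 10055 normalized reads in the 12 h libraries, against 6791 and 6291 in the 0 h libraries (1.61-fold higher, log2 change 0.68 ± 0.09, adjusted p = 4.21e-05). Bub1b, a kinase of the spindle checkpoint, had 3501 and 3372 at 12 h, against 2272 and 2289 at 0 h (1.51-fold higher, log2 change 0.59 ± 0.07, adjusted p = 2.03e-05). Cenpf, a kinetochore protein gene, had 4091 and 3867 at 12 h, against 2667 and 2655 at 0 h (1.49-fold higher, log2 change 0.58 ± 0.07, adjusted p = 4.01e-05). The replicates agreed closely here. Cenpa, the centromeric histone, and Ube2c, a ubiquitin-conjugating enzyme of mitotic exit, were the members called lower (-0.17 and -0.16 log2). Neither was called without either 0 h library, without 12 h replicate 2 or with equal totals. Ccnb2, Cdk1, Cdc20, Nusap1 and Prc1 ranged from -0.08 to 0.18 log2 and did not pass. Between 12 h and 24 h, 18 of the 25 were higher at 24 h (3.32% of all tested genes were).

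Of 15 cell cycle inhibitors and p53 targets 6 were higher and 3 lower, against 18.1% and 18.2% of all tested genes. Rbl1, the pocket protein p107 and itself an E2F target, had 1295 and 1429 normalized reads in the 12 h libraries, against 927 and 949 in the 0 h libraries (1.45-fold higher, log2 change 0.54 ± 0.07, adjusted p = 6.22e-05). Cdkn1a, which encodes the CDK inhibitor p21, had 4614 and 4558 at 12 h, against 6002 and 5454 at 0 h (1.25-fold lower, log2 change -0.32 ± 0.08, adjusted p = 0.00585), a call lost with equal totals, with quantile normalization and without 0 h replicate 1. Btg1, an antiproliferative gene, had 2538 and 3170.5 at 12 h, against 4780.3 and 5724 at 0 h (1.84-fold lower, log2 change -0.88 ± 0.14, adjusted p = 0.000204). The number higher fell to 1 without 0 h replicate 1 or without 12 h replicate 2. Atm, the kinase that signals DNA breaks, was among the 3 higher genes with the smallest p, with 1923 and 1810.5 at 12 h, against 927 and 942 at 0 h (adjusted p = 9.49e-08). Of 12 growth cyclin and MYC network genes, 2 rose and 3 fell, all by less than 0.5 log2, against 18.1% and 18.2% of all tested genes. Of the D-type cyclins, Ccnd1 had 11654 and 12288 at 12 h, against 9896 and 9965 at 0 h (log2 change 0.27 ± 0.10, adjusted p = 0.0487). Ccnd2 had 6154 and 7542 at 12 h, against 8502 and 9519 at 0 h (log2 change -0.40 ± 0.14, adjusted p = 0.0427). Both calls were lost without either 0 h library, without 12 h replicate 1, with no filter and with eBayes without a trend. That of Ccnd1 was also lost without 12 h replicate 2, and that of Ccnd2 with equal totals and with quantile normalization. Ccnd3 (-0.23 log2) did not pass. Without 12 h replicate 1 the list held 1 lower and no higher gene, and with a replicate block 6 were lower.

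Chaperones of the endoplasmic reticulum also mostly rose. Of 17 tested, 12 were higher and 1 lower, against 18.1% and 18.2% of all tested genes, with a median of 0.28 log2. Sdf2l1, a cofactor of the chaperone BiP, had 1131 and 1003 normalized reads in the 12 h libraries, against 573 and 464 in the 0 h libraries (2.06-fold higher, log2 change 1.04 ± 0.15, adjusted p = 8.76e-05). Hsp90b1, the HSP90 of that compartment, had 75113 and 71958 at 12 h, against 54838 and 50627 at 0 h (1.40-fold higher, log2 change 0.48 ± 0.09, adjusted p = 0.00102). Pdia4, a protein disulfide isomerase, had 8391 and 8016 at 12 h, against 5860.4 and 5712 at 0 h (1.42-fold higher, log2 change 0.50 ± 0.08, adjusted p = 0.000349). Their 12 h level lay between a higher one before and a lower one after: the list's median from 0 h was 0.60 log2 at 4 h and 0.71 at 8 h, then 0.28 at 12 h, with -0.20 at 24 h, and 13 of the 17 were lower at 24 h than at 12 h (3.11% of all tested genes were). Hspa5, which encodes BiP, did not pass at 12 h (-0.04 log2), and Xbp1, a transcription factor of the unfolded protein response, was the member that was lower, with 2428 and 2572 at 12 h, against 3871 and 3388 at 0 h (log2 change -0.54). Without 0 h replicate 2 or without 12 h replicate 1, 6 members were higher, and the call of Xbp1 was lost without 0 h replicate 1 or without 12 h replicate 1.

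The ER stress element, the site through which the unfolded protein response acts on these genes, consists of CCAAT and CCACG with 9 bases of any kind between them. It is shown in capitals for 3 members, on either strand, to give the form it takes in them.
Hsp90b1, chr10:86705604-86705690, minus strand: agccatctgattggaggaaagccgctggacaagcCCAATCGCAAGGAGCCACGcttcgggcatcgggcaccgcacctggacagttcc
Creld2, chr15:88819486-88819572, plus strand: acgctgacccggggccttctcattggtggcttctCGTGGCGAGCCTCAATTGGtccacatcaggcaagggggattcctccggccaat
Pdia6, chr12:17266457-17266543, plus strand: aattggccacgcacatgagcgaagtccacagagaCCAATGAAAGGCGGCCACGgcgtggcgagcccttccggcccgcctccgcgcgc

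The element was in the windows of 7 of 15 genes of the list (46.7%), against 0.119% of all windows.

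Within the ATF4 amino acid response, 5 of 18 genes were higher and 3 lower, against 18.1% and 18.2% of all tested genes. Ddit3, which encodes the stress factor CHOP, had 733 and 662 normalized reads in the 12 h libraries, against 492 and 489 in the 0 h libraries (1.42-fold higher, log2 change 0.51 ± 0.13, adjusted p = 0.00752), after a mean of 1492 ± 240.4 at 4 h, and its call was lost without 12 h replicate 1. Atf4 itself had 15128 and 17036 at 12 h, against 20339 and 19630 at 0 h (1.24-fold lower, log2 change -0.32 ± 0.08, adjusted p = 0.00828), not called without 0 h replicate 1 or without 12 h replicate 1. The serine synthesis genes Psat1, Psph and Phgdh were 0.28, 0.31 and 0.24 log2 higher, and Asns (0.06) and Trib3 (0.07) did not pass. The numbers were 10 higher and 0 lower with equal totals, 8 higher and 0 lower with quantile normalization or without 0 h replicate 1, 3 higher without 12 h replicate 2, and 2 higher and 1 lower without 0 h replicate 2 or without 12 h replicate 1.

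Genes of general protein and energy metabolism changed by small amounts. Of 22 cytosolic ribosomal protein genes 11 were called lower, against 18.2% of all tested genes. The changes of all 22 ranged from -0.38 to -0.10 log2. The median was -0.18 log2 with the deposited scaling, -0.01 with equal totals and 0.04 with quantile normalization. The number lower was 20 with a replicate block, 2 with equal totals, and 4 or 5 without 0 h replicate 1, 0 h replicate 2 or 12 h replicate 1. Rplp2 had 8186 and 7993 normalized reads in the 12 h libraries, against 10066 and 11057 in the 0 h libraries (1.30-fold lower, log2 change -0.38 ± 0.06, adjusted p = 0.000258). Of 20 ribosome biogenesis genes 3 were higher and 1 lower, against 18.1% and 18.2% of all tested genes. The number higher was 14 with equal totals and 11 with quantile normalization or with a replicate block. Polr1a, the largest subunit of RNA polymerase I, had 5764 and 5444 at 12 h, against 4471 and 4098 at 0 h (1.31-fold higher, log2 change 0.39 ± 0.08, adjusted p = 0.00118). Of 20 respiratory chain subunits 2 were lower, and of 20 proteasome subunits 1 was higher and 1 lower, shares well under that of all tested genes. With equal totals 11 of the respiratory and 16 of the proteasome genes were higher. The higher proteasome gene, Psma5, lost its call without 0 h replicate 2 or without either 12 h library, and the lower one, Psmb4, lost it in 12 of 19 alternatives. Of 12 genes listed as cytosolic heat shock genes 2 were higher and 3 lower, against 18.1% and 18.2% of all tested genes. The 2 higher ones, Hspd1 and Hspe1, encode mitochondrial proteins and are not cytosolic. Both lost their call without 0 h replicate 2, without 12 h replicate 1 and in a fit of the 0 h and 12 h libraries alone. Bag3, a co-chaperone, had 3071 and 3129.5 at 12 h, against 4505 and 4632 at 0 h (1.47-fold lower, log2 change -0.56 ± 0.05, adjusted p = 2.03e-06), and Hspa8 had 101890 and 104600 at 12 h, against 132780 and 116610 at 0 h (log2 change -0.27 ± 0.08, adjusted p = 0.02), which became 0.20 log2 with quantile normalization (adjusted p = 0.0862) and was not called without 0 h replicate 1 or without either 12 h library.

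**Figure D4:**
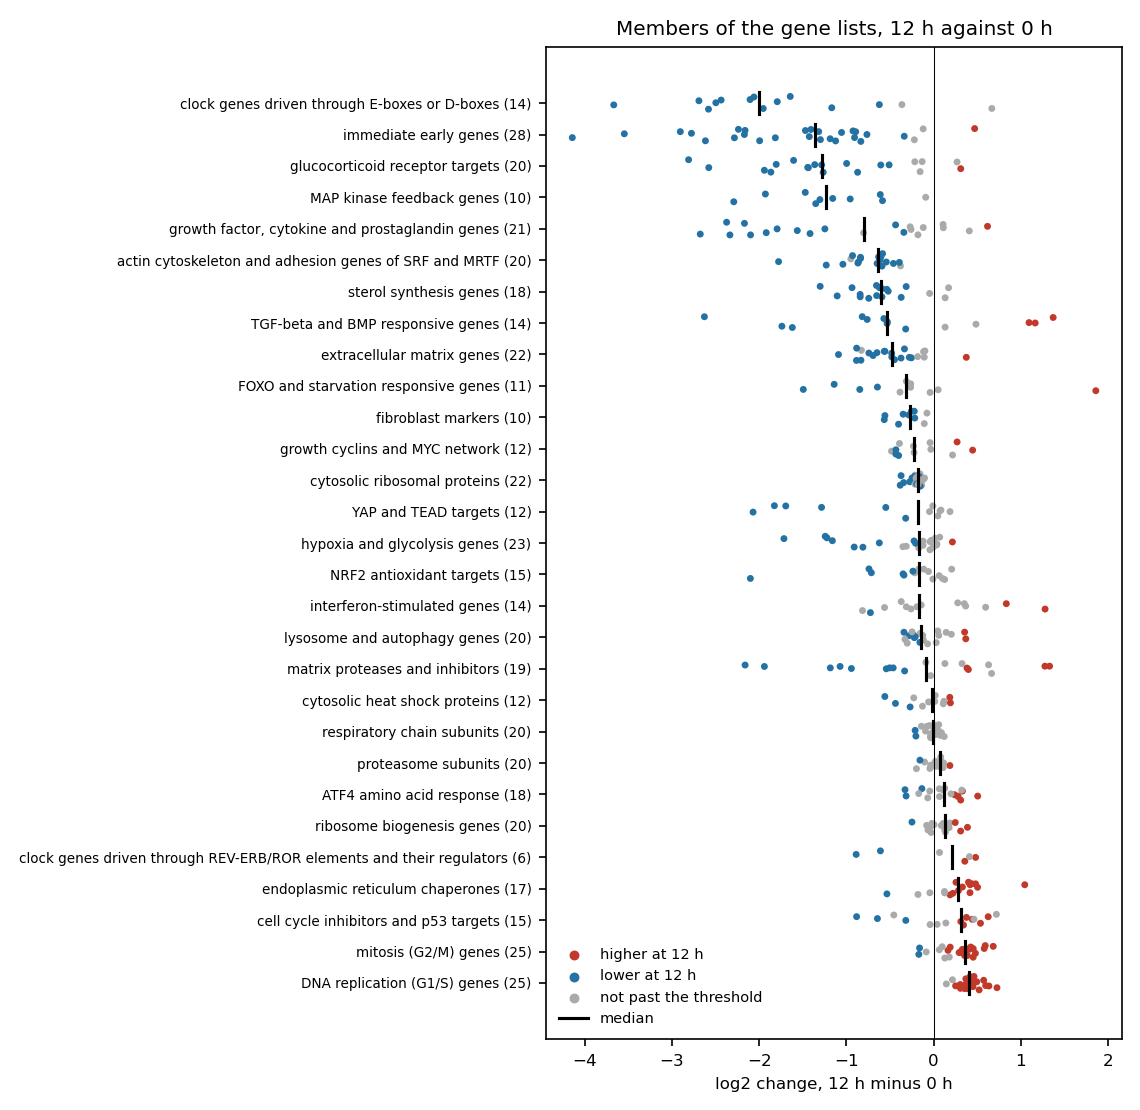
Log2 change at 12 h against 0 h (horizontal axis) of the tested members of 29 gene lists (rows, with the number tested in parentheses), with called members in red or blue, the others in grey and a black bar at each median. The medians run from -2.01 in the E-box and D-box clock genes to 0.41 in the DNA replication genes.

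The genes with the largest rises at 12 h, among genes averaging 50 or more normalized reads whose libraries did not overlap, are mostly outside these lists. Kcnj2, an inward rectifier potassium channel gene, had 178 and 236 normalized reads in the 12 h libraries, against 41.5 and 31.6 in the 0 h libraries (5.54-fold higher, log2 change 2.47 ± 0.16, adjusted p = 6.84e-08). Irs1, the adaptor of the insulin and IGF receptors, had 1437 and 1494 at 12 h, against 462 and 386 at 0 h (3.47-fold higher, log2 change 1.79 ± 0.11, adjusted p = 4.39e-08), while its relative Irs2 was lower, with 897 and 753 at 12 h, against 1746 and 1879.6 at 0 h (log2 change -1.14 ± 0.11, adjusted p = 2.7e-06). Txnip, which inhibits thioredoxin and glucose uptake, had 1520.2 and 1782 at 12 h, against 375 and 548 at 0 h (3.63-fold higher, log2 change 1.86 ± 0.23, adjusted p = 2.77e-05). In all 3 genes that rose, the lower 12 h library was more than 2 times the higher 0 h library. Rnf122, a RING finger ubiquitin ligase, was 3.69-fold and the cytokine gene Il15 3.36-fold higher. Runx1t1, a transcriptional corepressor, had 181 and 219 at 12 h, against 61.4 and 57.7 at 0 h (3.31-fold higher, log2 change 1.73 ± 0.21, adjusted p = 2.39e-05). Rnf43, a ligase that removes Frizzled receptors from the cell surface, had 262 and 242 at 12 h, against 106 and 87.9 at 0 h (2.59-fold higher, log2 change 1.37 ± 0.11, adjusted p = 6.8e-07). Dna2, a nuclease and helicase of replication and repair, was 2.51-fold and Fn3krp, which repairs glycated proteins, 2.72-fold higher. Zan, Akap17b and 9330159F19Rik, the last of them with no role given here, were 2.50-fold, 2.45-fold and 2.43-fold higher. Btn1a1 had 162 and 108 at 12 h, against 66.8 and 33.0 at 0 h and was called (log2 change 1.48 ± 0.54, adjusted p = 0.0449), but the call was lost in 7 of 19 alternatives.

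Several of the largest falls were those of genes outside the lists. Sphk1, the kinase that makes sphingosine 1-phosphate, had 399 and 411 normalized reads in the 12 h libraries, against 5188 and 4406 in the 0 h libraries (11.8-fold lower, log2 change -3.56 ± 0.10, adjusted p = 5.73e-11). Kctd11, an adaptor of a cullin ubiquitin ligase, had 445 and 370.5 at 12 h, against 3844 and 2638 at 0 h (7.82-fold lower, log2 change -2.97 ± 0.19, adjusted p = 5.14e-08). Nppb, which encodes the B-type natriuretic peptide, had 391 and 372 at 12 h, against 3245 and 2530.4 at 0 h (7.50-fold lower, log2 change -2.91 ± 0.23, adjusted p = 5.42e-07). These genes were picked among those whose 12 h and 0 h libraries did not overlap, so their separation follows from that choice. Wisp1, a secreted relative of Ctgf, was among the 3 lower genes with the smallest p, with 5369.7 and 5216 at 12 h, against 16668 and 16746 at 0 h (3.16-fold lower, log2 change -1.66 ± 0.06, adjusted p = 3.01e-10). Sema4f, a semaphorin gene, had 78.8 and 46.8 at 12 h, against 599 and 319 at 0 h (7.09-fold lower, log2 change -2.83 ± 0.45, adjusted p = 0.000269). The gene 1810011O10Rik had 467 and 382 at 12 h, against 2577 and 2964 at 0 h (6.53-fold lower, log2 change -2.71 ± 0.11, adjusted p = 1.13e-09). Aspn, a small proteoglycan gene, had 33.1 and 61.4 at 12 h, against 198 and 579 at 0 h (log2 change -2.88 ± 0.89, adjusted p = 0.0211). The replicates of Aspn were far apart: its change was -3.65 log2 without 0 h replicate 1 and -2.11 log2 without 0 h replicate 2, where it was not called (adjusted p = 0.178).

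**Figure D5:**
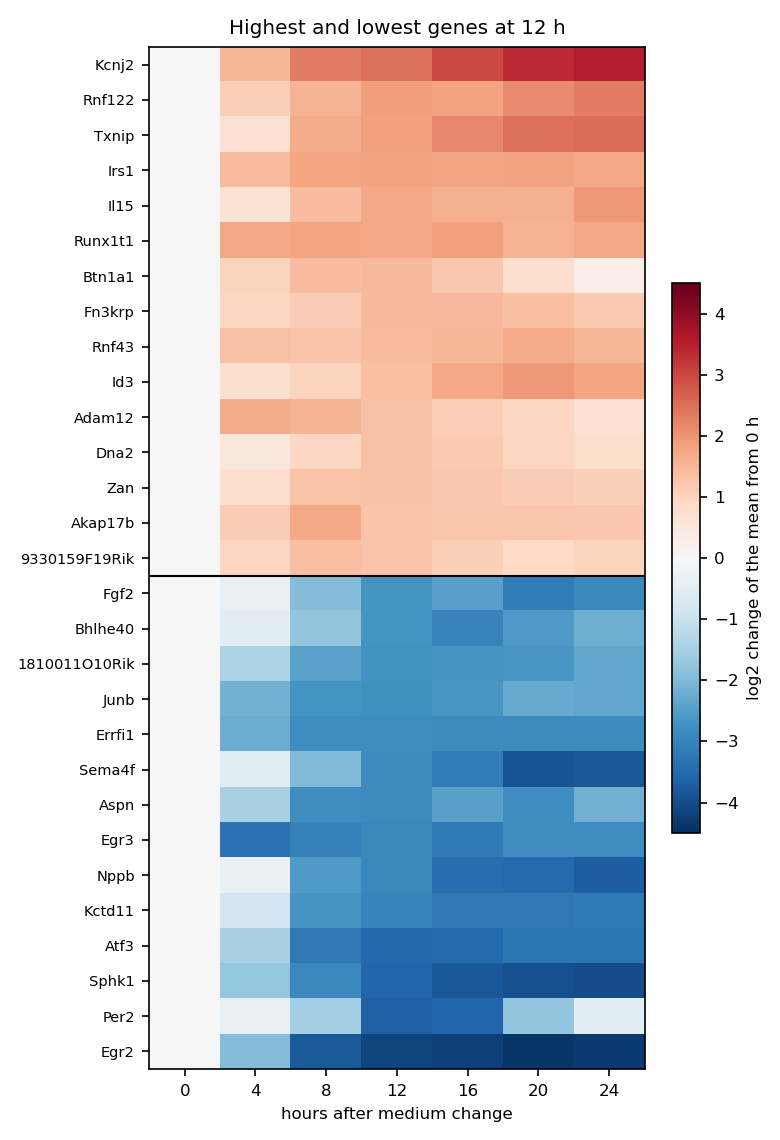
Log2 change of the mean from 0 h (colour) of the 15 highest and 14 of the 15 lowest genes at 12 h (rows, separated by a line) at 0, 4, 8, 12, 16, 20 and 24 h (columns). Kcnj2 goes on rising to 3.53 at 24 h, Egr2 is at -4.14 at 12 h and -4.30 at 24 h, and Per2 is at -3.67 at 12 h and -0.50 at 24 h.

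Over the whole table, 4611 genes (37.2%) differed between 24 h and 0 h, 2309 (18.6%) higher and 2302 (18.6%) lower, in a comparison that shares the 0 h libraries with that at 12 h. Of the immediate early genes 24 of 28 were lower at 24 h than at 0 h, and of the actin and adhesion genes 18 of 20. Egr2 at 24 h had 176 and 194 normalized reads and Sphk1 had 306 and 288 normalized reads, log2 changes of -4.30 and -4.00 from 0 h (adjusted p = 2.27e-11 and 1.37e-11). Of the 14 E-box and D-box clock genes 2, Tef and Hlf, were higher and 4, Per1, Nr1d1, Bhlhe40 and Bhlhe41, lower at 24 h than at 0 h. Kcnj2 at 24 h had 447 and 413 normalized reads, which was 1.06 log2 above 12 h (adjusted p = 0.00192).

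The cells were checked against markers of fibroblasts and of other cell types. The 10 fibroblast markers summed to 933120 to 964680 normalized reads in the 12 h libraries, against 1158400 to 1230100 in the 0 h libraries. Of these markers 8 were called lower, against 18.2% of all tested genes, with a median of -0.27 log2. With equal totals 1 was lower and none higher, and with quantile normalization 1 was lower and 3 were higher. The number lower also fell when 0 h replicate 2, 12 h replicate 1 or 12 h replicate 2 was left out. Vim, which encodes vimentin, had 106480 and 101820 normalized reads in the 12 h libraries, against 122060 and 120830 in the 0 h libraries (log2 change -0.22 ± 0.06, adjusted p = 0.00884), but was 0.31 log2 higher with quantile normalization (adjusted p = 0.00676). The 6 muscle markers summed to 2903 to 3002 at 12 h, against 5134 to 6201 at 0 h, nearly all of it Acta1, with 2955 and 2861 at 12 h, against 6145 and 5077 at 0 h (log2 change -0.94 ± 0.12, adjusted p = 3.37e-05), while Myod1 was at 0 in every library. The epithelial markers summed to 274 to 338 at 12 h, against 832 to 1123 at 0 h, mostly Krt8, with 302 and 248 at 12 h, against 1079 and 791 at 0 h (log2 change -1.75 ± 0.17, adjusted p = 3.71e-06). Their part in the results above was not tested. Leukocyte markers (213 to 283 at 12 h, against 166 to 219 at 0 h, Cd3e at 0 in every library), endothelial markers (65.3 to 103 against 67.3 to 75.9, Kdr at 0), adipocyte markers (489 to 563 against 478 to 802) and neural markers (768 to 808 against 719 to 739, Olig2 at 0) were low, and none of their tested members was called. With a replicate block 1 leukocyte and 1 neural marker were called higher, the neural count being 1 with equal totals too.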

How the data were processed

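RNA was sequenced from NIH3T3 cells at 9 times after the dexamethasone pulse, 2 libraries a time. The authors deposited 1 table of signal values, in which the reads counted for a gene had been scaled by a factor for that library and kept to 2 decimals. Per the submitters' processing notes the tools were TopHat, HTSeq and DESeq and the build mm9; versions, strand setting and annotation are not given in the sources used here. Per the labels' protocols, RNA was column purified and read single end. No column lacked a sample. Every value was a whole multiple of its column's smallest step, and thus a whole number of reads, within 0.02 reads (largest distance 0.00611). The totals per library limit the precision of genes with few reads.

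limma 3.58.1 (R 4.3.3) was run on log2(value + 1) with a variance trend over all 18 libraries, for genes averaging 10 or more normalized reads, a filter that the groups with high levels can decide; 4267 genes were at 0 in every library. All tests were 2-sided. Alternatives were pseudocounts of 0.5 and 5, no filter or a mean of at least 50, equal totals, quantile normalization, TMM factors, eBayes with no trend, robust eBayes, 2 count tests on the recovered reads (edgeR 4.0.16, DESeq2 1.42.0), only the 0 h and 12 h libraries, a replicate block, and leaving out each library of 0, 12 and 24 h, where the spread of the lone library was taken from the other times. edgeR's quasi-likelihood test called 2237 genes higher and 2194 lower. The fit was also run on simulated counts. Those had few changed genes and no shared deviation of same-numbered libraries, unlike these data, so they cannot show how the fit behaves here.

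The comparison, the gene lists and the rule for named genes were chosen with earlier results of these data known. Named were the 15 highest and 15 lowest called genes (mean of at least 50, no overlap of the libraries), the 3 with the smallest p in each direction, all clock list members, and up to 5 called members of each other list with the smallest p. For genes picked by size or by p, libraries that stand apart follow largely from the choice and are no added support. Other list members were chosen after their values were seen. They are given by their log2 change, and a few, such as Fosb, Klf9 and Xbp1, with their reads too. A few symbols were matched through synonyms; Col6a3 was not analysed here, and a few members that the rule named are not reported here. Same-numbered libraries deviated together in all 36 pairs of times (correlations 0.23 to 0.502, 0.359 between 0 h and 12 h), so the numbers pair the libraries. The labels give no source of the pairing. The main fit and its adjusted p-values leave this pairing out. Only the replicate block takes it in, with 2980 genes higher and 3167 lower at 12 h. Promoter windows come from RefSeq on GRCm38.p6, a later build than the one named for the files, so no coordinates were taken from the files. Motifs and figures used Python 3.11.15 and matplotlib 3.10.9.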

Additional observations from a re-analysis of the deposited data

How the results depend on the processing

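Of the 165 named genes that were called, 125 kept their call and direction in all 19 alternatives and 40 lost the call in at least 1 of them. Counts over all genes that moved by more than 1.5 times are these. With equal totals 4770 genes were higher and 1183 lower at 12 h than at 0 h, 80.13% of the calls were higher and 226 genes were at least 2-fold higher and 240 at least 2-fold lower. In a fit of the 0 h and 12 h libraries alone 1415 were higher, and with the filter at 50 normalized reads 54 were at least 2-fold higher. At 24 h against 12 h, 2743 genes were called with the replicate block. Leaving out 1 library at a time gave 1497 to 2250 higher, 1552 to 2258 lower, 77 to 162 at least 2-fold higher and 306 to 374 at least 2-fold lower genes at 12 h, 214 to 808 calls at 24 h against 12 h and 3400 to 4623 at 24 h against 0 h. The replicate block gave 2980 higher and 3167 lower genes at 12 h and, at 24 h against 0 h, 6121 calls, all within 1.5 times the counts without it. The log2 change turned positive for 3 genes with quantile normalization, Hspa8 (0.20), Rps18 (0.0248) and Vim (0.31), and for Psmb4 with equal totals (0.0214). Of 1330 counts of list members under the alternatives, 1159 stayed within 1.5 times. The causes were not tested. With 2 libraries a time, the smallest change called was 0.13 log2.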

Other observations

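Interferon-stimulated genes mostly did not pass: of 14 tested, 2 were higher and 1 lower at 12 h, against 18.1% and 18.2% of all tested genes. With a replicate block 5 were higher and 5 lower. Ifit2, an interferon-induced protein that limits translation, had 945 and 1073 normalized reads in the 12 h libraries, against 388 and 443 in the 0 h libraries (2.42-fold higher, log2 change 1.28 ± 0.12, adjusted p = 2.57e-06). Irf1, a transcription factor of the interferon response, had 917 and 926 at 12 h, against 545 and 490.2 at 0 h (1.78-fold higher, log2 change 0.83 ± 0.09, adjusted p = 6.45e-06). The libraries of the 2 times were apart in both genes. Gbp2, a guanylate-binding protein, had 142 and 158 at 12 h, against 191 and 324 at 0 h (1.65-fold lower, log2 change -0.72 ± 0.22, adjusted p = 0.0195), a call lost when 0 h replicate 2 or 12 h replicate 1 was left out.

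Among 11 tested genes that respond to FOXO factors and starvation, 4 were lower and 1, Txnip, was higher, against 18.2% and 18.1% of all tested genes. Fbxo32, which encodes the ubiquitin ligase atrogin-1, had 183 and 220.3 normalized reads in the 12 h libraries, against 555 and 579 in the 0 h libraries (2.82-fold lower, log2 change -1.49 ± 0.13, adjusted p = 1.3e-06). Ccng2, a cyclin of quiescent cells, had 156 and 208 at 12 h, against 266 and 298 at 0 h (1.56-fold lower, log2 change -0.64 ± 0.24, adjusted p = 0.0461), and Pink1, a kinase of mitochondrial quality control, had 230.2 and 299 at 12 h, against 383 and 584 at 0 h (1.80-fold lower, log2 change -0.85 ± 0.28, adjusted p = 0.0293). These last 2 calls were lost when either 0 h replicate 2 or 12 h replicate 1 was left out, with equal totals and with eBayes without a trend. Ccng2 lost its call in 7 of 19 alternatives and Pink1 in 4. With equal totals 2 members of the list were lower, and with a replicate block 7 were. Of 20 lysosome and autophagy genes 2 were higher and 6 lower, against 18.1% and 18.2% of all tested genes. Npc1, which exports cholesterol from lysosomes, had 901 and 864 at 12 h, against 669 and 697 at 0 h (1.29-fold higher, log2 change 0.37 ± 0.07, adjusted p = 0.0012), and Sqstm1, which encodes the autophagy receptor p62, had 9785 and 9283 at 12 h, against 12616 and 11536 at 0 h (1.27-fold lower, log2 change -0.34 ± 0.06, adjusted p = 0.000369). With equal totals 6 of the 20 were higher and 1 lower, and with a replicate block 10 were lower. The number lower was 2 without 0 h replicate 2 and 3 without 12 h replicate 2, and the number higher was 1 without either 0 h library or without 12 h replicate 2.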
